A study of Mus musculus with 30 samples.

Results

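The voltage-gated potassium channel genes examined here are the pore-forming alpha subunits of the Kv families (Kcna, Kcnb, Kcnc, Kcnd, Kcnf, Kcng, Kcnh, Kcnq, Kcns and Kcnv), the cytoplasmic beta subunits Kcnab1 to Kcnab3 and the calcium-binding KChIP subunits Kcnip1 to Kcnip4. They were chosen by symbol alone, without use of expression values. Reference tables held 47 such symbols, of which 44 were among the 17477 genes of the count table, 37 of them alpha subunits and 7 auxiliary subunits. Kcna7, Kcna10 and Kcnv2 were not analysed here. All 44 genes passed the filter on low counts in females, in males and in the fit of both sexes.

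RNA-seq was performed on the hippocampus of adult C57 BL/6J mice, 1 library per mouse. Social isolation (SI) mice were kept 1 to a cage from weaning to adulthood, and group-housed (GH) mice, the controls, shared cages with other mice over the same time. There were 8 SI females, 7 GH females, 7 SI males and 8 GH males, and the comparison in each sex asks how SI affects gene expression. The mice carried no transgene or drug treatment that the labels name, and mice are named below by the animal number of their label.

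Kv channels open when the membrane depolarizes, and the potassium current they carry repolarizes the neuron and limits how often it fires. Alpha subunits assemble into tetramers around a pore, and families differ in where they sit and when they open: Kv1 channels lie along axons, Kv2 channels are delayed rectifiers of the soma, Kv3 channels allow fast spiking, Kv4 channels carry the A-type current of dendrites, and Kv7 channels carry the M-current. The modifier families (Kcnf, Kcng, Kcns and Kcnv) do not form channels by themselves and join Kv2 subunits. In the hippocampus these channels shape the excitability of pyramidal cells, granule cells and interneurons.

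Libraries held between 18809307 and 100844898 counts, and the 44 channel genes together received 47527 to 413220 of them. All 13 hippocampal and general neuron markers had counts in each of the 30 libraries, with a summed level of 6912 CPM or more (counts scaled to the TMM-normalized library size). The libraries of SI males 25, 33 and 39 stood apart. Their log2 CPM fell with transcript length over all genes, with slopes between -0.42 and -0.31 per doubling of length, against -0.12 to 0.16 in the other 27 libraries. The channel genes took 0.226% to 0.253% of the counts in these 3 libraries and 0.302% to 0.415% in the other 27. For the single channel genes and the median of the 44 genes, male fold changes are therefore given with and without these 3 mice. Counts by family, and male values of partner proteins and other potassium channels, are given only with them. P-values of the fits set the difference between groups against the spread between mice. That spread is what remains after surrogate variables, covariates estimated from the same counts, are taken out. The labels do not name the cage, so GH mice that may have shared a cage were treated as independent. In whole tissue, fewer cells of a type and less RNA per cell cannot be told apart.

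Levels of the channel genes spanned a wide range in the hippocampus. Per kilobase of transcript, the median over the 30 mice was between 0.195 CPM for Kcnq1 and 230.8 CPM for Kcnab2, the beta subunit that promotes surface delivery of Kv1 channels. The median was above 10 CPM per kilobase for 18 genes, between 1 and 10 for 19 and below 1 for 7. Lengths were those of the longest GENCODE vM1 transcript, which can be shorter than the models used for counting. Kcng2 has a model of only 705 bases there, so its position right after Kcnab2 (54.9 CPM per kilobase) is uncertain.

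Other genes near the top were Kcnq3 (48.3 CPM per kilobase), a Kv7 subunit, and Kcna2 (45.9), an axonal Kv1 subunit. Kcnip2 (45.4), a KChIP subunit of Kv4 channels, Kcnip3 (35.1), another KChIP subunit, and Kcnh3 (33.4), an ELK subunit found mainly in forebrain neurons, lay below them. The ranges of neighbouring genes in the order of the 41 genes named here overlapped over the 30 mice, except between Kcnab2 and Kcng2, between Kcnip1 and Kcns3, and between Kcnd1 and Kcnh5. Thus only Kcnab2 stood clear of the genes ranked next to it at the top. The genes with the lowest levels were Kcnh5, Kcnh4, Kcna5, Kcnh6, Kcng3, Kcnh8 and Kcnq1. Kcnq1 overlaps the antisense transcript Kcnq1ot1, and since the sources used here do not say whether counting used strand, its counts (6 to 62 per library) are uncertain.

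**Figure D1:**
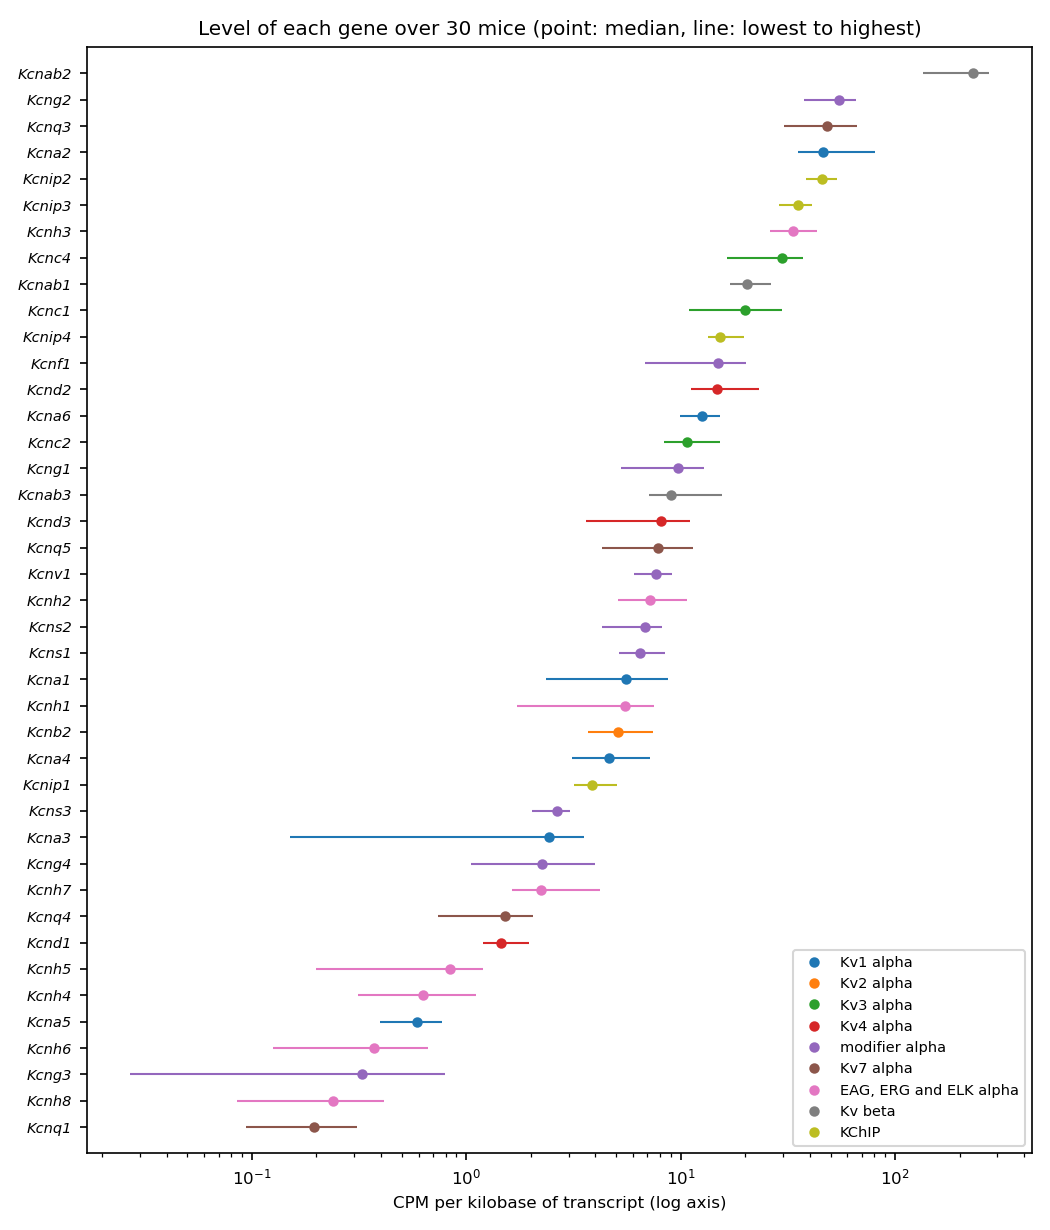
Level of the 41 channel genes named here in CPM per kilobase of transcript on a log axis, with the point at the median of the 30 mice, the line from the lowest to the highest mouse and colours by family. Kcnab2 lies highest at a median of 230.8 and Kcnq1 lowest at 0.195, and the lines of Kcna3 and Kcng3 reach far to the left of their medians.

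In females, 2 of the 44 channel genes differed between SI and GH at an adjusted p under 0.05: Kcnh3 was lower and Kcns2 was higher in SI. Over all 16026 genes tested in females 3.89% passed the same threshold, 2.93% lower and 0.961% higher in SI, so 1 gene of 44 in each direction lies close to that background. Without regard to significance, 17 channel genes had a fold change below 0 and 27 above it, with a median log2 fold change of 0.03 (range -0.35 to 0.28), against a median of 0.01 over all genes. An unadjusted p under 0.05 was found for 10 channel genes, 3 lower and 7 higher in SI, and for 20.2% of all genes, 11.0% lower and 9.29% higher. No channel gene had SI and GH values that did not overlap, while 0.324% of all genes did.

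Kcnh3 (ENSMUSG00000037579) encodes a pore-forming subunit of the ELK family and lies at chr15:99055292-99073248 on the plus strand of NCBIM37. Its lowest, median and highest values were 110, 140 and 156 CPM in GH females, and 103, 113 and 125 CPM in SI females. All 8 SI females lay below the GH median, 4 of them below the lowest GH female, and the ranges overlapped. The fitted log2 fold change was -0.23 (SE 0.0427, n = 8 and 7), with an adjusted p of 0.00972 in edgeR's quasi-likelihood test. It remained past the threshold without each mouse in turn, except without SI female 68 (adjusted p = 0.0601). Without surrogate variables (covariates estimated from the counts to absorb unwanted variation) the log2 fold change was -0.25 (SE 0.0703) and the adjusted p was 0.128.

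Kcns2 (ENSMUSG00000050963), a modifier subunit of Kv2 channels, lies at chr15:34767110-34772095 on the plus strand of NCBIM37. GH females had 23.1, 27.6 and 30.2 CPM (lowest, median and highest), and SI females had 26.97, 32.6 and 35.8 CPM. Of the 8 SI females, 7 lay above the GH median and 5 above the highest GH female. The log2 fold change was 0.19 (SE 0.0494), with an adjusted p of 0.0410. The call held in 7 of the 15 fits that left out 1 mouse, and its adjusted p was 0.268 without surrogate variables.

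The other channel genes did not pass the threshold in females. Kcnab3, a beta subunit, had medians of 20.2 CPM in GH and 23.2 CPM in SI females, with 7 of 8 SI mice above the GH median and a log2 fold change of 0.15 (SE 0.0548, adjusted p = 0.132). Kcnip3, a KChIP subunit that is also known as the calcium-dependent repressor DREAM, had medians of 104 and 94.6 CPM, all 8 SI females below the GH median and a log2 fold change of -0.12 (SE 0.0437, adjusted p = 0.137). Kcnab2 had 938 and 876 CPM, with 5 of 8 SI females below the lowest GH female and a log2 fold change of -0.12 (SE 0.0497, adjusted p = 0.189). All 3 beta subunits had an unadjusted p under 0.05, Kcnab2 lower and Kcnab1 and Kcnab3 higher.

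By family, the female fold changes were small. The Kv7 genes had 4 of 5 below 0 and the modifier genes 7 of 9 above 0, Kcns2 being the gene called among them. Of the EAG, ERG and ELK genes 3 of 8 were below 0 and 5 above, with Kcnh3 called. The Kv1 genes had fold changes close to 0, from -0.09 for Kcna3 to 0.08 for Kcna1, and neither Kv1, Kv2, Kv3, Kv4, Kv7, beta nor KChIP genes held a call. The most abundant subunits of the Kv1 and Kv4 families, Kcna2 and Kcnd2, had log2 fold changes of -0.00 and 0.05, with SE of 0.0742 and 0.0584. Kcng2, the highest modifier gene, had a log2 fold change of -0.09 (SE 0.0747), and Kcnip2, the highest KChIP gene, had 0.10 (SE 0.0448, adjusted p = 0.204).

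Markers of other cells moved with housing in females. All 8 astrocyte markers had lower fitted values in SI and 5 of them passed the threshold, and their summed level was 4532 to 6370 CPM in SI and 5476 to 7442 CPM in GH (exact two-sided permutation test over the 6435 ways to divide the 15 mice, p = 0.00342, 0.0214 after adjustment over 12 library values). The 8 endothelial markers summed to 226 to 282 CPM in SI and 195 to 230 CPM in GH (exact permutation test, two-sided p = 0.00357, adjusted 0.0214), with 1 of 8 past the threshold. The 13 neuron markers summed to 9308 to 10309 CPM in SI and 9506 to 11497 CPM in GH (exact permutation test, two-sided p = 0.0138, adjusted 0.0553), with 1 of 13, Camk2a (log2 fold change -0.24), past the threshold and lower. By fitted value, 11 of the 13 neuron markers were higher in SI and 2 lower, with a median of 0.06, so the sum and most of its genes differed in sign. All 8 oligodendrocyte and 8 microglia markers had lower fitted values in SI, and all 10 choroid plexus markers had higher ones. None of these passed the threshold, and their sums had adjusted p of 0.287, 0.461 and 0.657 in the same exact permutation tests. None of the astrocyte, endothelial and neuron markers was at 0 in any library, and their part in the Kcnh3 and Kcns2 results was not tested.

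The abundant subunits named here had overlapping values in GH and SI females. Kcnab2 had 897 to 1076 CPM in GH and 773 to 982 CPM in SI females, and Kcnab3 had 18.2 to 24.4 CPM and 20.1 to 28.0 CPM. Kcna2 had 133, 154 and 180 CPM in GH (lowest, median and highest) and 144, 149 and 184 CPM in SI. For Kcna2 the SI range covered most of the GH range.

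Kcnd2 had 57.6, 76.8 and 86.2 CPM in GH and 65.7, 76.2 and 109 CPM in SI females. The highest SI value of Kcnd2, Kcna2 and Kcnip2 came from SI female 45. Kcng2 had 32.2, 40.2 and 45.7 CPM in GH and 26.4, 37.2 and 46.2 CPM in SI, and Kcnip2 had 119.9, 133 and 136 CPM against 125, 141 and 153 CPM. Kcna3, a low-level Kv1 subunit, had 2.76, 5.59 and 6.99 CPM in GH and 2.08, 5.03 and 6.40 CPM in SI.

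**Figure D2:**
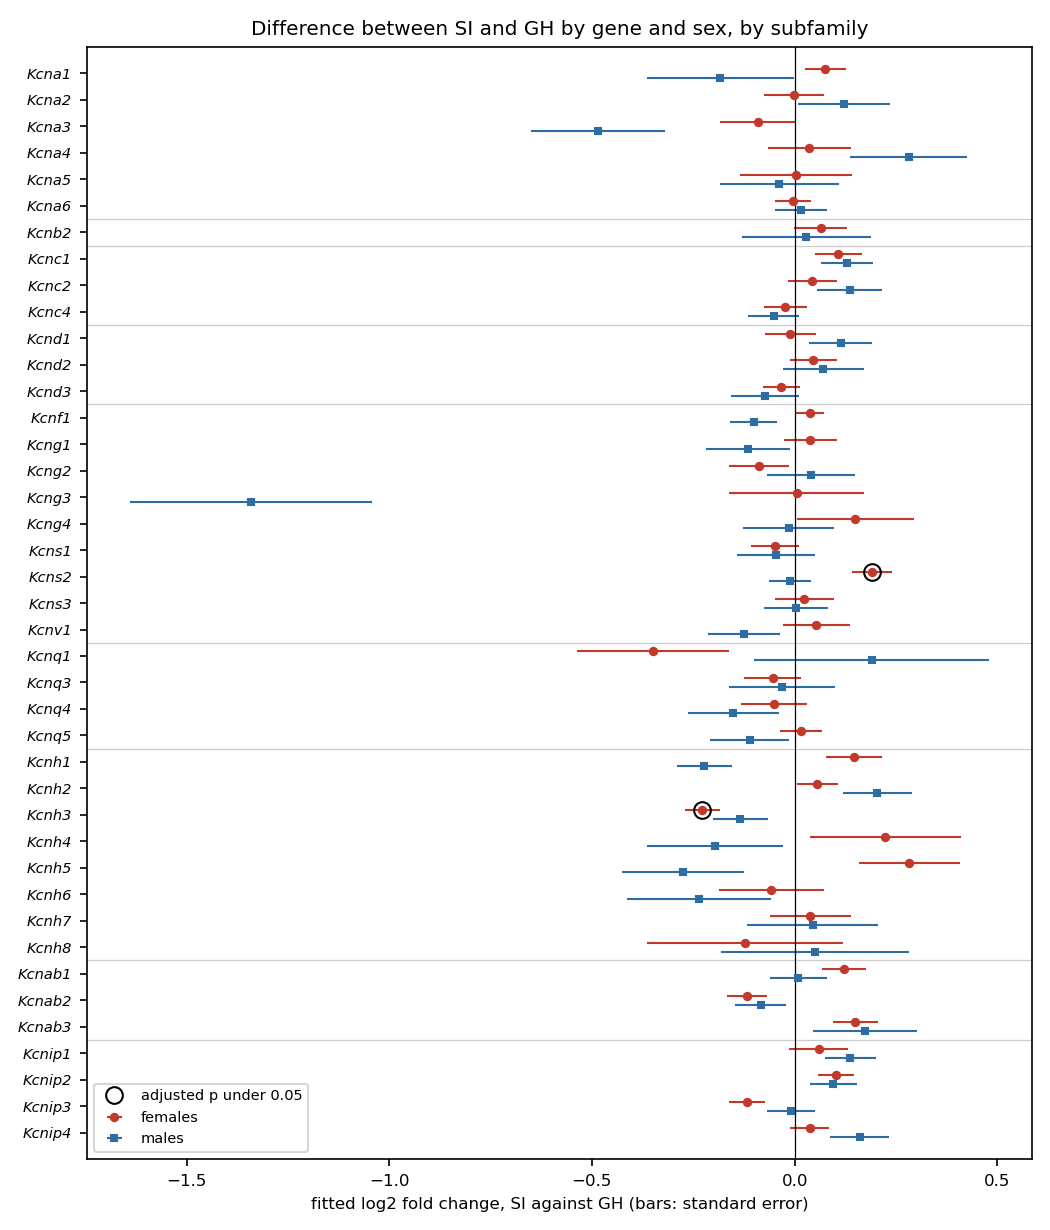
Fitted log2 fold change of SI against GH for the 41 channel genes named here, with circles for females, squares for males, bars for the standard error and a ring for an adjusted p under 0.05. Only Kcnh3 (-0.23) and Kcns2 (0.19) in females carry a ring, and Kcng3 in males (-1.34) lies farthest from 0.

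In males, 0 of the 44 channel genes passed the threshold in edgeR, as was true of all 15833 genes tested (0%). DESeq2 with the same surrogate variables called 0 channel genes and 24 of all genes (0.184% of the genes to which it gave an adjusted p). The adjusted p of the channel genes ranged from 0.295 to 0.991. An unadjusted p under 0.05 was found for 7 of them, against 13.0% of all genes. Of the 7, 4 had negative fold changes (7.38% of all genes), Kcng3, Kcnh1 and Kcna3 among them, and Kcnh2, Kcnip4 and Kcnip1 had positive ones (5.63%). No channel gene had SI and GH males that did not overlap, against 0.0758% of all genes. Over the 44 genes 24 fold changes were below 0 and 20 above, with a median of -0.01 (range -1.34 to 0.28), against -0.00 over all genes. Without SI males 25, 33 and 39 the fit, then with 4 surrogate variables, had 31 below 0 and a median of -0.06, and edgeR called 0 channel genes, with 2 at an unadjusted p under 0.05 (6.29% of all genes). The standard errors were larger than in females, with a median of 0.0933 against 0.0617.

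Kcng3 (ENSMUSG00000045053), a modifier subunit of Kv2 channels on the minus strand at chr17:83985297-84031235 of NCBIM37, had the smallest p in males. GH males had 0.758, 1.10 and 2.68 CPM (lowest, median and highest), and SI males had 0.0903, 0.248 and 1.39 CPM. Of the 7 SI males 6 lay below the lowest GH male, and SI male 8 lay within the GH range. The gene was near its detection limit in several libraries. It had 3, 2 and 2 counts in SI males 25, 33 and 39 and 7 to 32 counts in the other 4 SI males. GH males had 36 to 118 counts. These counts are not scaled to depth, and SI male libraries were shallower. Total counts were 18809000 to 58232000 (median 25610000) in SI males and 33433000 to 66576000 (median 49542000) in GH males. The log2 fold change was -1.34 (SE 0.299, unadjusted p = 0.000323, adjusted p = 0.295). Without SI males 25, 33 and 39 it was -1.03 (SE 0.251, adjusted p = 0.614).

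Kcng3 showed no such difference in females. GH females had 0.490, 1.28 and 1.79 CPM and SI females 0.559, 1.19 and 1.55 CPM, and the log2 fold change was 0.00 (SE 0.166, adjusted p = 0.991). The interaction of sex and housing for Kcng3 was -1.17 on the log2 scale (SE 0.246, unadjusted p = 5.5e-05, adjusted p = 0.241), so the difference between the sexes did not pass the threshold. Without SI males 25, 33 and 39 the interaction was -1.09 (adjusted p = 0.267).

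Kcnh1, which encodes the EAG channel subunit, was the 1 channel gene with an unadjusted p under 0.05 in both sexes, and its signs were opposite. Such a p was found for 20.2% of all genes in females and 13.0% in males, and the share in both sexes was not counted. GH males had 36.0, 40.9 and 47.2 CPM and SI males 12.5, 31.1 and 47.4 CPM, and 5 of 7 SI males lay below the lowest GH male. The log2 fold change was -0.22 in males (SE 0.0675, adjusted p = 0.3001). GH females had 25.9, 39.4 and 43.96 CPM and SI females 33.6, 39.7 and 54.4 CPM, with a log2 fold change of 0.15 (SE 0.0680, adjusted p = 0.237). Of the 8 SI females, 4 lay above the GH median, 3 of them above the highest GH female, and 4 lay below the median. The interaction was -0.29 (SE 0.0997, adjusted p = 0.534). Without SI males 25, 33 and 39 the male value was -0.10 (SE 0.0620, adjusted p = 0.880).

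Kcna3, a Kv1 subunit known from lymphocytes and microglia as well as from neurons, had 3.25, 4.77 and 6.86 CPM in GH males and 0.297, 2.55 and 6.74 CPM in SI males. The log2 fold change was -0.49 (SE 0.165, adjusted p = 0.312). SI males 25, 33 and 39 had 0.297, 0.316 and 0.758 CPM (7, 7 and 14 counts), while the other 4 SI males had 2.55 to 6.74 CPM. Without these 3 mice the log2 fold change was -0.21 (SE 0.137, adjusted p = 0.883). Kcna2, which lies downstream on the same strand (Kcna3 at chr3:106839080-106841047 and Kcna2 at chr3:106904485-106909797, NCBIM37), had 279, 232 and 172 CPM in the same 3 libraries, against 121 to 178 CPM in GH males. So the 2 neighbouring Kv1 genes lay on opposite sides of the GH male median (4.77 and 160 CPM) in these libraries.

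Kcnh3 had 118, 127 and 142 CPM in GH males and 93.3, 109 and 130 CPM in SI males. Its log2 fold change in males was -0.13 (SE 0.0684, adjusted p = 0.402), with 6 of 7 SI males below the GH median, and it was -0.14 (SE 0.0629, adjusted p = 0.789) without SI males 25, 33 and 39. The interaction for Kcnh3 was 0.07 (SE 0.0798), so a difference between the sexes was not shown.

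Kcns2 had 26.9, 30.9 and 34.1 CPM in GH males and 18.8, 29.9 and 33.1 CPM in SI males, with a log2 fold change of -0.01 (SE 0.0519), and also -0.01 (SE 0.0529) without SI males 25, 33 and 39. Its interaction was -0.17 (SE 0.0706, unadjusted p = 0.0249, adjusted p = 0.594). The sex by housing interaction was called for 0 of the 44 channel genes in edgeR (0% of 16391 genes tested). DESeq2 with the same surrogate variables called 0 channel genes and 6 of all genes (0.15% of those to which it gave an adjusted p). In edgeR, 5 channel genes had an unadjusted p under 0.05, namely Kcng3, Kcnh1, Kcnh5, Kcns2 and Kcnf1, each with a more negative fold change in males. Such a p was found for 7.75% of all genes, 4.22% more negative and 3.53% more positive in males.

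**Figure D3:**
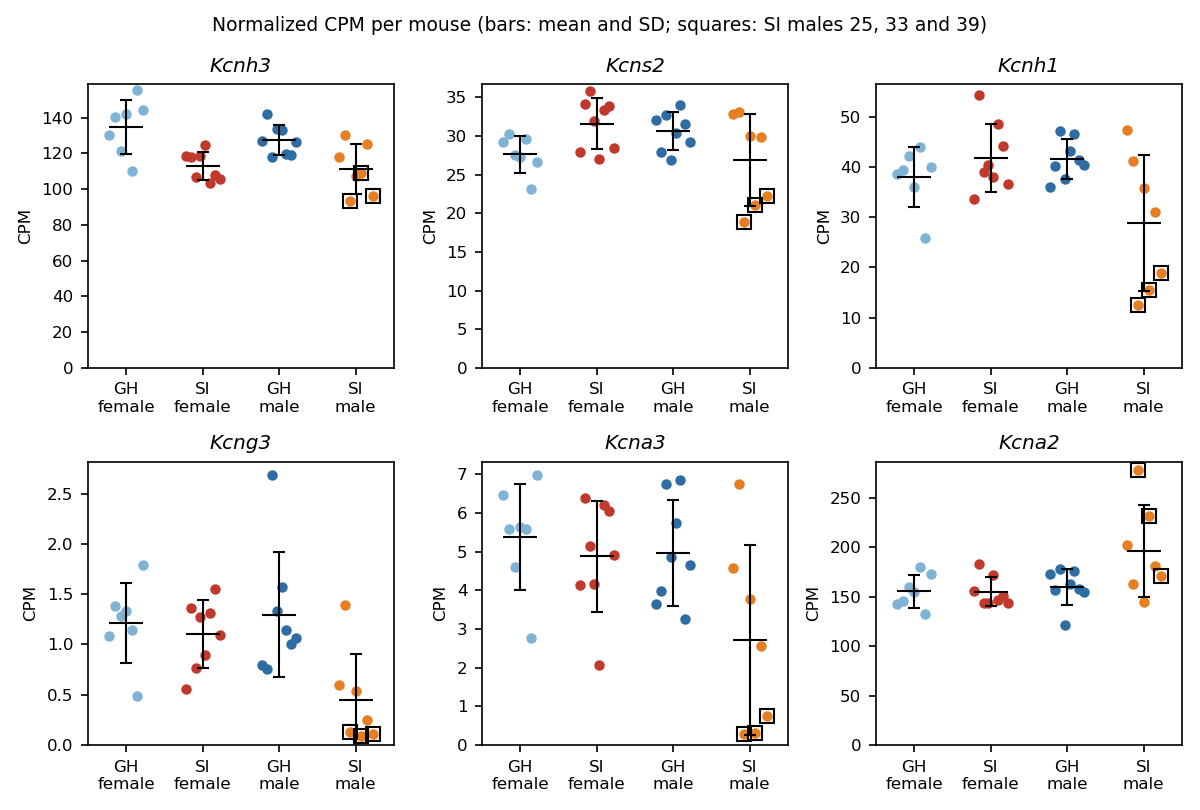
TMM-normalized CPM per mouse for Kcnh3, Kcns2, Kcnh1, Kcng3, Kcna3 and Kcna2 in the 4 groups, with bars for the mean and SD and squares around SI males 25, 33 and 39. The SI females lie below the GH female median for Kcnh3, and the squared mice are low for Kcnh1 and Kcna3, while for Kcng3 6 of 7 SI males lie below the lowest GH male.

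The other male values did not pass the threshold. Kcnd2, the main dendritic A-type subunit, had 79.5 and 72.2 CPM (0.07, SE 0.0995, adjusted p = 0.784). The fitted values are adjusted for surrogate variables, so they can differ in sign from the medians, as they do for Kcnd2. Kcnab2 had 937 and 839 CPM (-0.08, SE 0.0625), Kcnab3 had 24.2 and 22.7 CPM (0.17, SE 0.128), Kcnip2 had 147 and 148 CPM (0.10, SE 0.0586) and Kcng2 had 36.7 and 39.1 CPM (0.04, SE 0.108). Without SI males 25, 33 and 39, in the fit with 4 surrogate variables, the sign turned for Kcnab3 (-0.08, SE 0.1304) and Kcng2 (-0.11, SE 0.0980). In that fit Kcnip2 was at 0.03 (SE 0.0510), Kcnd2 at 0.05 (SE 0.0495) and Kcnab2 at -0.07 (SE 0.0426). Without the same mice and without surrogate variables, Kcnab3 was at 0.16 (SE 0.159) and Kcng2 at 0.05 (SE 0.114), so neither sign turned. Kcnip2 was then at 0.13, Kcnd2 at 0.12 and Kcnab2 at -0.01. The lowest to highest values overlapped between housing groups in males for each of these genes. They were 68.8 to 101.3 CPM in GH and 57.6 to 119 CPM in SI for Kcnd2. Kcnab2 ranged from 863 to 961 CPM in GH and from 529 to 1006 CPM in SI, and Kcnab3 from 19.3 to 30.3 and from 20.4 to 39.5 CPM. Kcnip2 ranged from 125 to 160 and from 125 to 167 CPM, and Kcng2 from 31.9 to 46.3 and from 30.4 to 43.8 CPM. Kcna2 had 121, 160 and 178 CPM in GH and 144, 182 and 279 CPM in SI males, with a log2 fold change of 0.12 (SE 0.114, adjusted p = 0.654) and of -0.02 (SE 0.0660) without SI males 25, 33 and 39. Without these mice and without surrogate variables the Kcna2 value was 0.11 (SE 0.104). By family, 4 of 5 Kv7, 7 of 9 modifier and 5 of 8 EAG, ERG and ELK genes had negative male fold changes, as did 1 of 4 Kv3 genes, 1 of 3 Kv4 genes and 1 of 4 KChIP genes.

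The channel genes were low as a group in SI males 25, 33 and 39. Measured against the GH male mean in log2 CPM, 40, 39 and 37 of the 44 genes lay below it in these mice, with medians of -0.48, -0.43 and -0.47, while 7 to 36 lay below the mean of their sex in the other 27 libraries. In each of the 3 libraries 31 of the 44 channel genes (70.5%) were below the lowest GH male, against 40.6%, 38.8% and 36.4% of all genes tested. Only 3, 2 and 3 channel genes were above the highest GH male, against 37.3%, 36.6% and 34.1% of all genes. These libraries thus departed from GH males in both directions over all genes, and mostly downward over the channel genes.

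The subunits were not equally low. Kcna3, Kcng3, Kcnh5 and Kcnh1 were among those farthest below the GH male mean, and Kcnh5 was at -2.03, -1.51 and -1.06 on the log2 scale in SI males 25, 33 and 39. The Kv4 gene Kcnd3, an A-type subunit, was at -1.22, -1.15 and -0.98, and Kcnf1, a modifier subunit, at -1.29, -1.21 and -0.70. Against this, Kcnh7, an ERG subunit, was at 0.87, 0.61 and 0.04, and Kcnip4, a KChIP subunit, at 0.40, -0.02 and 0.28. Kcnip1, another KChIP subunit, was at 0.01, 0.06 and 0.23.

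**Figure D4:**
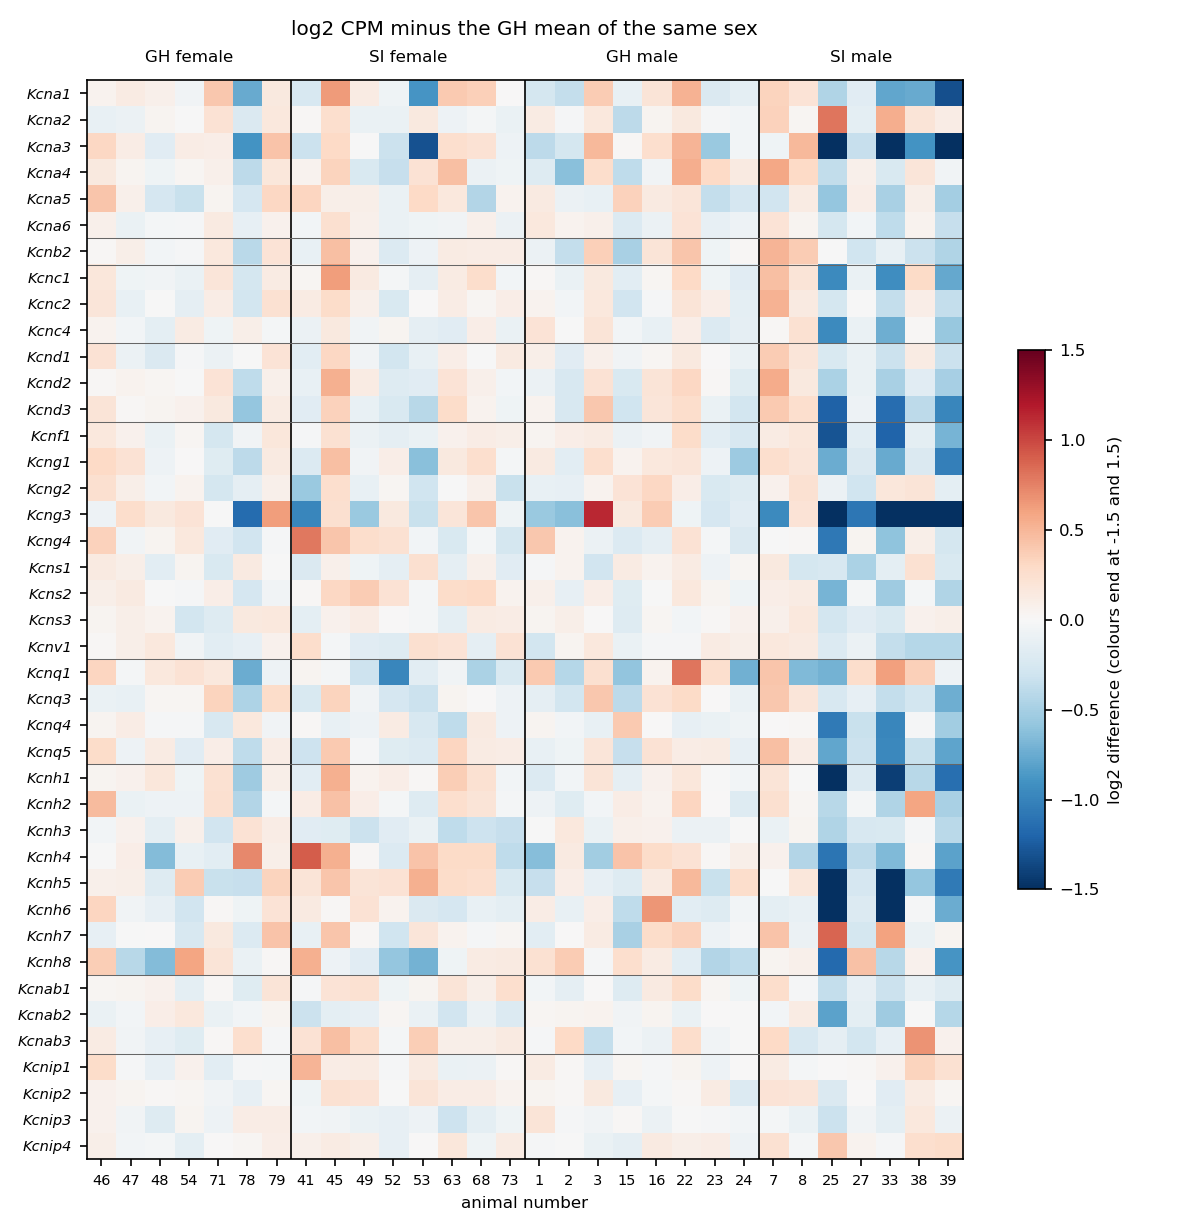
Difference of log2 CPM from the GH mean of the same sex for the 41 channel genes named here (rows, by family) in the 30 mice (columns, by group), with blue for lower, red for higher and colours ending at -1.5 and 1.5. The columns of SI males 25, 33 and 39 are mostly blue, with Kcna2 and Kcnh7 among the red cells, and the column of SI female 45 is mostly red.

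Departures also occurred in single libraries of other groups. In SI female 45, the deepest library, 25 of the 44 channel genes (56.8%) were above the highest GH female, against 22.1% of all genes, and the median difference from the GH mean was 0.26. In SI male 7, 16 genes (36.4%) were above the highest GH male, against 19.5% of all genes, with a median difference of 0.19. GH female 78 had a median difference of -0.23, the lowest of the 27 other libraries, with a length slope of -0.09.

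The channel genes had a median transcript length of 3938 bases against 2992 bases over all genes, and the median level of the 44 genes moved with the length slope of the library. SI males 25, 33 and 39 had length slopes of -0.42, -0.40 and -0.31, and SI female 45 and SI male 7 had 0.13 and 0.16. Among the 44 genes, the Spearman correlation of the difference from the GH mean with length was -0.13, -0.30 and -0.24 in the first 3 mice. It was 0.40 in SI female 45 and 0.45 in SI male 7. Marker sums also differed in the 3 libraries. The neuron markers summed to 6912, 7809 and 7559 CPM in SI males 25, 33 and 39, against 9956 to 11004 CPM in GH males. The microglia markers summed to 646, 617 and 549 CPM against 354 to 442 CPM, the oligodendrocyte markers to 10850, 9735 and 8431 CPM against 6014 to 8011 CPM, and the interneuron markers to 1853, 1778 and 1588 CPM against 1043 to 1217 CPM. None of the 13 neuron, 8 microglia, 8 oligodendrocyte and 10 interneuron markers was at 0 in any library, and none passed the threshold between SI and GH males, as was true of all genes tested. By fitted value over all males, 8 of the 13 neuron markers were higher in SI and 5 lower, with a median of 0.09. Of the 8 microglia markers 6 were lower and 2 higher, and of the 8 oligodendrocyte markers 3 were lower and 5 higher. Of the 10 interneuron markers 1 was lower and 9 higher. All 6 thalamus markers and 3 of 5 striatum markers were higher, with medians of 0.67 and 0.15 and none past the threshold. Thus the neuron and microglia sums in these 3 libraries and most fitted values over all males differed in sign.

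Without surrogate variables the male median of the 44 genes was -0.16, with 35 of 44 below 0. With the trend of length and GC content removed from each library as well it was -0.07, with 28 of 44 below 0. Without SI males 25, 33 and 39, and with surrogate variables, it was -0.06, with 31 of 44 below 0. Without these 3 mice and without surrogate variables it was 0.03, with 17 of 44 below 0, a setting added after the data were seen. The part of transcript length and of cell composition in the male values was not otherwise tested.

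**Figure D5:**
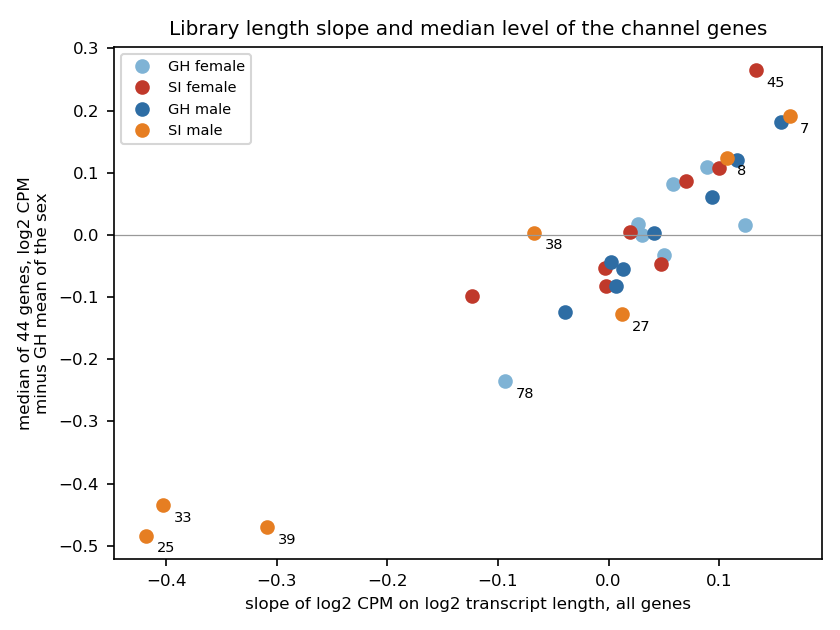
Median difference of the 44 channel genes from the GH mean of the same sex (log2 CPM, vertical axis) against the slope of log2 CPM on log2 transcript length over all genes (horizontal axis), 1 point per mouse, coloured by group. SI males 25, 33 and 39 lie at the lower left with medians of -0.48, -0.43 and -0.47, and SI female 45 lies highest at 0.26.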

How the data were processed

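RNA-seq of the hippocampus of 30 mice was analysed. The authors trimmed reads with Trimmomatic 0.39, quantified them with Salmon 1.8.0 and deposited counts per gene that are whole numbers and not normalized, 1 column per mouse. The submitters' processing notes name GRCm39, and the annotation release is not given in the sources used here. All genes in the table have at least 100 counts in total. Symbols were matched for 16439 of 17477 IDs (94.1%), and lengths and coordinates are of GENCODE vM1 on NCBIM37, an older build than that of the files, so no genome sequence was used.

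With R 4.3.3 and edgeR 4.0.16, genes were filtered within each sex by filterByExpr (minimum count 10, minimum total 15), normalized by TMM and tested by quasi-likelihood for SI against GH. Surrogate variables from svaseq (sva 3.50.0, 20 permutations, seed 1) were covariates, 3 in females, 2 in males and 4 in the interaction fit of both sexes. Their number was estimated anew in fits that left out mice, so those fits can differ from the main ones in this as well. P-values were Benjamini-Hochberg adjusted over all genes, with a threshold of 0.05. SE is the fold change divided by the root of F. Log2 CPM used a prior count of 2. Sums of markers were compared by exact permutation tests, adjusted over 12 values per sex. Steps were also run on simulated counts with less spread than these data and a hidden batch unrelated to housing. That setting is simpler than these data, and no result here rests on it.

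The genes, lists and alternatives were chosen with earlier results of these data known. Statistics are given for genes past the threshold, those with an unadjusted p under 0.05 in both sexes, the most abundant gene of each family and the 3 with the smallest p per sex. Counts and medians cover all 44 genes, while the single values of 3 of them are not reported here. Kcnip3, Kcnh5, Kcnd3, Kcnf1, Kcnh7, Kcnip4 and Kcnip1 were named after their values were seen. Alternatives included DESeq2 1.42.0, limma-voom (limma 3.58.1) and a lowess trend (span 0.3). Total counts were 18809307 to 100844898 per library. The standard errors of the fits cover counting error and the spread between mice left after the surrogate variables together.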

Additional observations from a re-analysis of the deposited data

Results flagged for a closer look

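Among 44 sets of 7 or 8 mice (11 channel genes in 4 groups), 4 held a mouse whose gap to the next mouse exceeded Dixon's critical value, where chance gives about 1 in 20, or 2.2. Kcna2, the axonal Kv1 subunit, was at 121 CPM in GH male 15, below the other GH males. Kcng3 was at 2.68 CPM in GH male 3, above the other GH males, and at 1.39 CPM in SI male 8, above the other SI males. Without GH male 3, in a fit with 1 surrogate variable instead of 2, the male log2 fold change of Kcng3 was -1.10. Kcnd2, the A-type subunit, was at 57.6 CPM in GH female 78, below the other GH females. Without GH female 78, in a fit with 4 surrogate variables instead of 3, the channel genes called in females were Kcnab3, Kcnh3 and Kcns2. There 8.86% of all genes were called, against 3.89% with this mouse included.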

How the results depend on the processing

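The number of channel genes called in females was 2, and 0 without surrogate variables, with the choroid plexus marker mean as a covariate, with the digit that ends the sample's position code as a factor, and with the length and GC trend removed without surrogate variables. These fits hold no surrogate variables and called 0, 0, 0 and 84 of all genes. Limma-voom with sample quality weights, also without them, called 838 of all genes and 3 channel genes, Kcnab2 (adjusted p = 0.0453), Kcnab3 and Kcnh3, but not Kcns2 (0.126). The number was 1 (Kcnh3) without the filter on low counts, where 4.18% of all genes were called. It was 6 (Kcnab1, Kcnab3, Kcnc1, Kcnh3 and Kcns2 among them) with the trend removed and surrogate variables kept. There 9.55% of all genes were called, and the cause was not tested. Leaving out 1 mouse gave 0 to 3 calls in females, with 0 without SI female 68 (0.55% of all genes called). Only Kcnh3 was called without SI female 45, 49, 52 or 63 (0.913%, 1.8%, 6.36% and 1.06% of all genes). The same held without GH female 48, 54 or 71 (1.69%, 1.4% and 2.73%). There were 3 calls without GH female 78 (8.86%), against 3.89% with all mice. In males, leaving out 1 mouse gave 0 to 4 calls, with 1 (Kcng3) without SI male 38 (0.802% of all genes). There were 4 (Kcna3, Kcng3 and Kcnh1 among them, all lower) without SI male 27, where 15.3% of all genes were called. For the interaction, leaving out 1 mouse gave 0 to 2, with Kcng3 and Kcnh1 called without SI male 7 (0.989% of all genes). The number of surrogate variables also differed between some of these fits.

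The log2 fold change of Kcnh3 in females stayed between -0.28 and -0.19 in all alternatives, and its adjusted p between 2.29e-05 and 0.196. That of Kcns2 stayed between 0.14 and 0.21, with an adjusted p of 0.0130 to 0.330. That of Kcng3 in males stayed between -1.70 and -0.97, with an adjusted p of 0.00753 to 0.994, over the alternatives that tested it. None of these 3 values changed sign. At least 10 counts in every sample removed 4 channel genes in males, Kcng3 among them. Leaving out SI males 25, 33 and 39 also without surrogate variables, and leaving out mice from the interaction fit, were added after seeing the data. No paired analysis was possible because each animal number occurs in 1 group only.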

Other observations

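Proteins that bind or place Kv channels, and potassium channels of other families, were examined in the same fits, from lists written with earlier results of these data known. Among 15 genes tested for Kv partner proteins, 2 were called lower in SI females (2.93% of all genes) and none was called in males (0% of all genes). The 2 called in females were Dlg4, the postsynaptic scaffold PSD-95 (log2 fold change -0.18, SE 0.0417, adjusted p = 0.0242), and Dlg2, the related scaffold PSD-93 that clusters Kv1 channels (-0.19, SE 0.0482, adjusted p = 0.0375). In males, Dlg2 had a log2 fold change of -0.39 (SE 0.102, adjusted p = 0.295) and Dlg4 -0.08 (SE 0.0754, adjusted p = 0.668).

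Among 12 inward rectifier genes tested, Kcnj16, a glial subunit, was lower in SI females (-0.31, SE 0.0790, adjusted p = 0.0380), where 2.93% of all genes were called lower. Its partner in astrocytes, Kcnj10, had -0.16 (SE 0.0890, adjusted p = 0.326), and all 8 astrocyte markers were lower in the same fit, 5 of them past the threshold. In males Kcnj16 had a log2 fold change of -0.32 (SE 0.123, adjusted p = 0.337). None of 10 two-pore, 11 calcium- and sodium-activated and 4 HCN genes was called by edgeR in either sex, where an unadjusted p under 0.05 was found in females for 3, 2 and 0 of them and in males for 0, 0 and 0, against 20.2% and 13.0% of all genes. The two-pore gene with the smallest p was Kcnk2, a mechanosensitive leak channel (-0.16 in females, SE 0.0453, adjusted p = 0.0581).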
